A study of Drosophila melanogaster with 2 samples.

Results

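The core apoptosis genes of Drosophila melanogaster were examined in larvae that carried GFP-tagged dASF/SF2 and in control larvae. The 10 genes chosen were rpr, hid, skl, Diap1, Diap2, Dronc, Drice, Dcp-1, Dark and Buffy. A gene was taken up where a probe of the array carried its symbol, or an older symbol of it, as the single gene in the platform annotation. This found 6 of the 10 genes, skl, Diap2, Dronc, Dcp-1, Dark and Buffy, with 1 probe each among 15744 probes, and 9266 genes had a value on both arrays in all. All 6 probes had a value on both arrays and 0 had a value on 1 array alone. The other 4 genes, rpr, hid, Diap1 and Drice, were matched to no probe and are not analysed here.

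Programmed cell death in the fly is held in check by inhibitor of apoptosis proteins, which bind caspases and mark them for degradation. The proteins Reaper, Hid, Grim and Sickle, known together as RHG proteins, bind these inhibitors and free the caspases. The initiator caspase Dronc is assembled on the adaptor Dark into the apoptosome and then cleaves the effector caspases Drice and Dcp-1. Surplus cells of the developing eye are removed by this route, and forced expression of hid or rpr under GMR ablates the eye, which has made that tissue a standard setting for work on cell death.

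PolyA RNA was compared on 2 two-colour arrays, each of which set larvae from the cross of GMR to GFP-dASF/SF2 against control larvae from the cross of GMR to GFP-NLS. Both genotypes therefore shared GMR, an enhancer active in the developing eye, and a GFP transgene, with a nuclear localisation signal in the control. dASF/SF2 is an SR protein, a family that acts in pre-mRNA splicing. The control RNA carried Cy3 on array 1 and Cy5 on array 2. The labels name larvae as the material and give no age, sex, dissected tissue or number of animals, nor whether GMR acted through GAL4. They do not say whether the arrays drew on separate extracts, so p-values cover array-to-array spread only, part or all of which may be technical. Only ratios are in the table, so the presence of eye cells could not be checked from levels. In such bulk RNA, fewer cells of a type and less RNA per cell cannot be told apart.

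Each value is a log ratio of the channels on the deposited scale, centred on the median of its array, and the sign of array 2 was turned because its dyes were swapped. If Cy5 was the numerator, a positive value means more RNA in dASF/SF2 larvae, and if Cy3 was, it means less. Neither the numerator nor the log base is settled by the labels or the table, so values are described as lying on the positive or negative side, and folds are given for base 2 and base 10. The probe for SF2 itself had -0.031 on array 1 and -0.128 on array 2. Whether that probe matches the part carried by the transgene is not known, and the genotypes were therefore not checked by it.

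No difference of a death gene between the genotypes passed the test. Of the 6 genes, limma called 0 at a Benjamini-Hochberg adjusted p under 0.05, and it called 0% of all 10912 probes tested. At an unadjusted p under 0.05 the count was 0 of 6, against 730 probes or 6.69% of all tested. Dronc and skl had positive means, and Buffy, Dark, Diap2 and Dcp-1 had negative means. The 6 means ran from -0.2535 for Buffy to 0.1795 for skl, with a median of -0.0865 against 0.0045 over all tested probes. All 6 lay inside the middle 95% of tested probes, which ran from -0.267 to 0.371, and 1 of 6, Dcp-1, lay between the quartiles of -0.062 and 0.093.

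**Figure D1:**
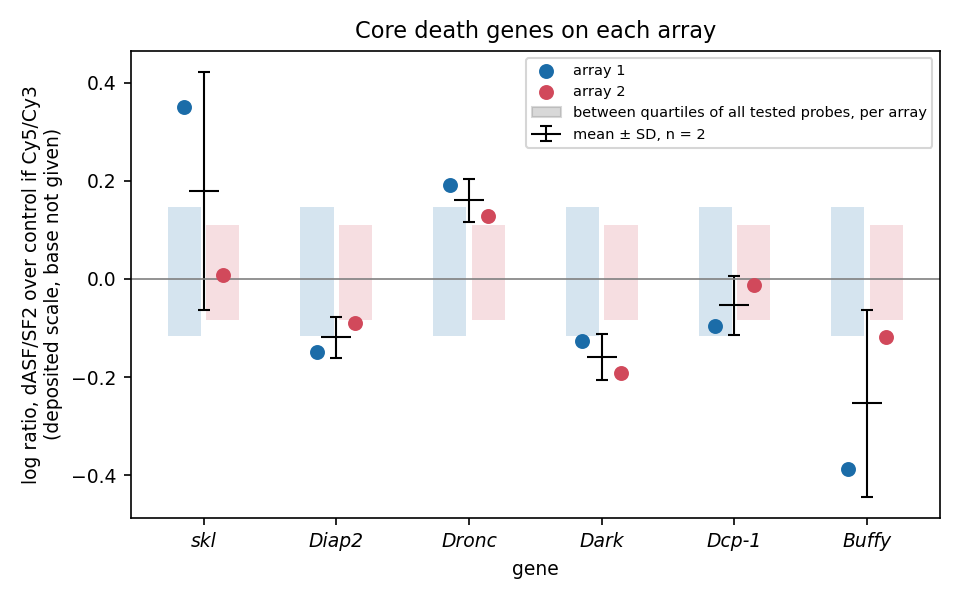
Log ratio (y axis, deposited scale, base not given) of each core death gene (x axis) on array 1 and array 2, with the mean ± SD of both arrays in black and the range between the quartiles of all tested probes of each array as shaded bars. Dronc lies above 0 on both arrays, Buffy, Dark and Diap2 lie below 0 on both, and skl is high on array 1 at 0.351 but near 0 on array 2.

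Of the RHG genes, which promote death by binding the inhibitors, skl (sickle, CG13701) was the one chosen gene with a probe. Its log ratio was 0.351 on array 1 and 0.008 on array 2. The high value thus stood on array 1, at percentile 91.9 of the tested probes there, and the value on array 2 was at percentile 49.3. The mean was 0.1795 ± 0.243 (SD, n = 2), which is 1.13-fold (base 2) or 1.51-fold (base 10), with a limma 95% interval of -0.125 to 0.484 and an adjusted p of 0.955 (limma, Benjamini-Hochberg). Without centring, array 2 gave -0.002, so skl has no side on that array that outlasts the choice of centring.

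The fourth RHG gene, grim, was outside the chosen list and had a value on array 2 alone, -0.256. As turned, grim is thus on the negative side on the array where skl was near 0, and with array 2 not turned it would be on the positive side. The side of every value on array 2 alone rests on that turning. In the order of the reference annotation, 8 protein-coding genes run from hid to skl, of which 6 had a probe, 3 with values on both arrays and 3 on array 2 alone. Between hid and skl, the other genes with values on both arrays had means of 0.0805 for CG13700, on the positive side of both arrays, and -0.032 for CG7320, with 0.038 and -0.102. CG5103 (-0.237) and CheA75a (-0.029), also between hid and skl, were measured on array 2 alone. The flanking genes with values went both ways. Beyond skl, CG4306 had 0.417 and 0.152 on the arrays, and Met75Cb had 0.001 on array 2 alone. Beyond hid, geko had 0.096 and 0.214, and Cyp312a1 had -0.466 and 0.046. CG7330 (-0.124) and CG13699 (-0.093), also beyond hid, had values on array 2 alone.

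Of the inhibitors, Diap2 (CG8293), which binds caspases and also acts in the Imd immune pathway, was measured. Its log ratio was -0.149 on array 1 and -0.089 on array 2, so both arrays gave a similar low value. The mean was -0.119 ± 0.0424 (SD, n = 2), which is 1.09-fold (base 2) or 1.32-fold (base 10). The limma interval of -0.361 to 0.123 spans 0, with an adjusted p of 0.989 (limma), and 31.9% of tested probes lay as far from 0 or farther. By the order of probe numbers, the print block of this probe was itself shifted, with medians of -0.087 on array 1 and 0.082 on array 2. After subtraction of block medians, Diap2 had -0.062 and -0.171, with a mean of -0.1165 close to the reported one.

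Among the caspases, the initiator Dronc (CG8091) had log ratios of 0.191 on array 1 and 0.129 on array 2. Both lay above the upper quartile of their array, which was 0.146 on array 1 and 0.11 on array 2. The mean was 0.16 ± 0.0438 (SD, n = 2), which is 1.12-fold (base 2) or 1.45-fold (base 10), with a limma interval of -0.0824 to 0.402 and an adjusted p of 0.932. The median of its block was 0.104 on array 1 and -0.069 on array 2, and relative to the block Dronc had 0.087 and 0.198.

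The effector caspase Dcp-1 (CG5370) stood closest to 0 of the 6 genes by its mean, a rank that did not hold with array 2 not turned, where it had -0.042 and Diap2 was closest at -0.03. It had -0.096 on array 1 and -0.012 on array 2, with a mean of -0.054 ± 0.0594 (SD, n = 2), a limma interval of -0.298 to 0.19 and an adjusted p of 0.999. Of all tested probes, 62.5% lay as far from 0 or farther. Dcp-1 and Drice are closely related caspases. Probe sequences were not used here, so it was not examined whether the Dcp-1 probe could also bind Drice RNA.

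The apoptosome adaptor Dark (CG6829), the fly counterpart of mammalian Apaf-1, lay on the negative side with -0.126 on array 1 and -0.192 on array 2. The mean was -0.159 ± 0.0467 (SD, n = 2), which is 1.12-fold (base 2) or 1.44-fold (base 10). The limma interval was -0.402 to 0.0837 and the adjusted p was 0.934. On array 2, as turned, it was the lowest of the 6 genes, at percentile 7.79 of the tested probes.

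Dronc and Dark, the caspase and the adaptor of one complex, thus lay on opposite sides. Dronc exceeded Dark by 0.317 on array 1 and by 0.321 on array 2, a mean difference of 0.319 ± 0.00283 (SD, n = 2), which is 1.25-fold (base 2) or 2.08-fold (base 10). Centring on the array median cancels in this difference, but the turning of array 2 does not. With array 2 left as deposited the difference would have opposite signs on the 2 arrays. Subtraction of block medians does not cancel either. It gave 0.087 and 0.198 for Dronc and -0.126 and -0.1915 for Dark, so the near equality of the arrays was lost. The pair was picked with its values known and carries no test. Dronc exceeded the effector caspase Dcp-1 by 0.287 on array 1 and by 0.141 on array 2. After subtraction of block medians Dcp-1 had -0.0905 and -0.072, and the larger difference from Dronc was on array 2.

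Buffy (CG8238), a protein of the Bcl-2 family with a protective role reported in the fly, had the mean farthest from 0 of the 6 genes. With array 2 not turned its mean was -0.1345, and skl, at 0.1715, was farthest. Its log ratio was -0.388 on array 1, at percentile 3.73 of the tested probes, and -0.119 on array 2, at percentile 18. Both arrays placed it on the negative side, and array 1 did so with the larger value. The mean was -0.2535 ± 0.190 (SD, n = 2), which is 1.19-fold (base 2) or 1.79-fold (base 10). The limma interval was -0.535 to 0.0277, with an unadjusted p of 0.0688 and an adjusted p of 0.792 by limma. Its Bcl-2 relative Debcl, which promotes death, was measured on array 1 alone, at 0.118.

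The order of the genes was not fully shared by the arrays. Array 1 placed skl highest and Buffy lowest, and array 2 placed Dronc highest and Dark lowest, or Dark highest and Dronc lowest if its sign is not turned. The 6 genes spanned 0.739 on array 1 and 0.321 on array 2, and their SD of 0.264 and 0.112 compares with 0.258 and 0.176 over all tested probes. The gap between the arrays was 0.343 for skl and 0.269 for Buffy, larger than in 82.5% and 74.2% of tested probes. For the other 4 genes it ran from 0.06 to 0.084.

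All 6 genes had the same side on both arrays, 2 positive and 4 negative, where 49.1% of tested probes kept a side, 26.1% positive and 23.1% negative, and 50.4% lay on opposite sides. For skl this rests on 0.008. Without centring the count was 5, and with array 2 not turned, as it should be if the table already runs by genotype, it was 0, where 50.4% of tested probes kept a side. Over all tested probes the arrays were nearly uncorrelated after turning (r = 0.0244 across probes, which are not independent replicates). An exact sign-flip test on 2 arrays cannot go below p = 0.5, so no single gene could be called by its sides.

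**Figure D2:**
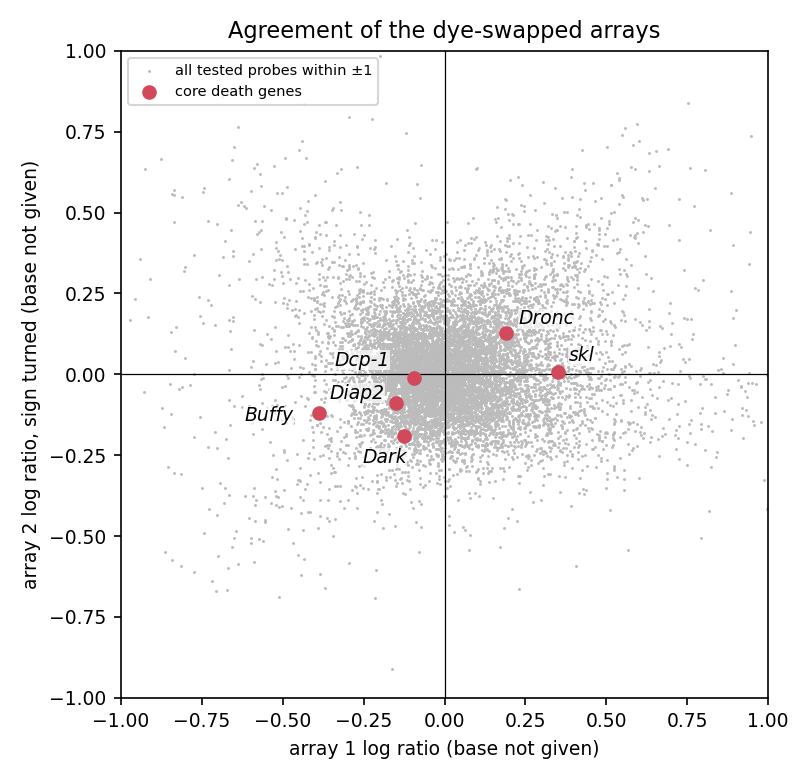
Log ratio on array 1 (x axis) against the turned log ratio on array 2 (y axis), both on the deposited scale with the base not given, for tested probes within 1 unit of 0 (grey; 73 probes lie outside) and the 6 core death genes (red). Dronc lies at the upper right, Buffy, Dark, Diap2 and Dcp-1 lie at the lower left, and skl lies at the right close to the horizontal axis line, at 0.008.

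The wider death machinery was covered by 6 lists with 58 genes, of which 46 had a probe and 38 a value on both arrays (42 probes). Over these 42 probes limma called 0, and 1 had an unadjusted p under 0.05, on the positive side, where the share over all tested probes was 4.76% for the positive and 1.93% for the negative side. The median was 0.024, with 12 probes positive on both arrays, 13 negative on both and 17 on opposite sides.

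The other core death genes had a median of -0.012, with 4 genes measured on both arrays and array medians of -0.071 and 0.0355. Bruce, a large ubiquitin-conjugating enzyme with a BIR domain that restrains death by Reaper and Grim, was lowest at -0.2465 ± 0.175 (SD, n = 2), with -0.123 on array 1 and -0.37 on array 2. The caspase Strica was highest at 0.1455, but its arrays gave -0.019 and 0.31. Dredd, the caspase of the Imd pathway, had 0.087 and -0.094, on opposite sides. On array 2 alone the caspase Damm had -0.357, and the probes for p53, which activates RHG genes after DNA damage, had -0.037 and 0.159. Decay was matched to no probe and is not analysed here.

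Genes that act on Diap1 turnover or expression and on caspase regulation had a median of 0.0235, with array medians of 0.116 and -0.132. The Hippo pathway kinase gene wts, whose pathway restrains Diap1 transcription, was highest, with 0.196 and 0.202 on the arrays and a mean of 0.199 (adjusted p = 0.836, limma). The co-activator gene yki, downstream of wts, which promotes Diap1 transcription, had -0.172 and -0.104. The kinase gene hpo, upstream of wts, had 0.116 and -0.139, on opposite sides. The lowest of the list was eIF3m, the gene of the apoptosome-associated protein Tango7, with -0.175 and -0.156.

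JNK and Eiger signalling, a stress route that can switch on RHG genes, had a median of 0.0845 over 13 probes, with 5 positive on both arrays, 1 negative on both and 7 on opposite sides. On array 2 alone the median was 0.028. The TNF receptor gene grnd was highest, at 0.267 and 0.215, with a mean of 0.241 ± 0.0368 (SD, n = 2) and an adjusted p of 0.746 by limma. With array 2 not turned, the arrays would place grnd on opposite sides. The TNF ligand gene egr lay near the array median, at 0.021 and -0.058. Downstream, the JNK gene bsk had 0.154 and 0.068, and puc, a phosphatase gene that JNK activity switches on, had 0.084 and 0.134. The JNK kinase gene hep had probes that disagreed, with means of -0.0485 and 0.1385. The adaptor gene Traf6 was lowest, at -0.1875.

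In EGFR and Ras signalling, which lowers Hid activity and supports survival in the eye, 4 of 5 probes, of which a pair belonged to spi, were negative on both arrays and the median was -0.0535. With array 2 not turned the median was 0.0325, and 0 of the 5 probes kept a side. As turned, 23.1% of all tested probes were negative on both arrays. Egfr was highest at 0.147, with 0.034 and 0.26 on the arrays, and the repressor gene aop was lowest at -0.1615. The feedback inhibitor gene aos had -0.468 on array 2 alone.

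Genes of apoptotic DNA fragmentation had a median of 0.0295 over 5 probes, with 0.073 on array 1, -0.014 on array 2 and -0.0505 with array 2 not turned. Drep1, the inhibitor of the caspase-activated nuclease, was highest with 0.094 and 0.202 on the arrays, and the nuclease gene Drep4 had -0.034 on array 2 alone. Drep3 was lowest at -0.193.

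Genes for the engulfment of dying cells had a median of -0.0622 over 6 probes. Its sign was not stable, with 0.0065 on array 1 alone, -0.026 on array 2 alone and 0.0217 with array 2 not turned. The list held ced-6, an adaptor of the engulfment receptor Draper, whose probes gave 0.367 ± 0.0495 and 0.156 ± 0.0325 (SD, n = 2 each). The higher of these probes had 0.402 and 0.332 on the arrays. It was the single probe of the 6 death lists that passed without adjustment (limma, unadjusted p = 0.011, adjusted p = 0.488). This rests on the turning of array 2, without which its arrays would lie on opposite sides. The receptor gene drpr had 0.041 and -0.193, on opposite sides, and the scavenger receptor gene crq was lowest at -0.0955.

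**Figure D3:**
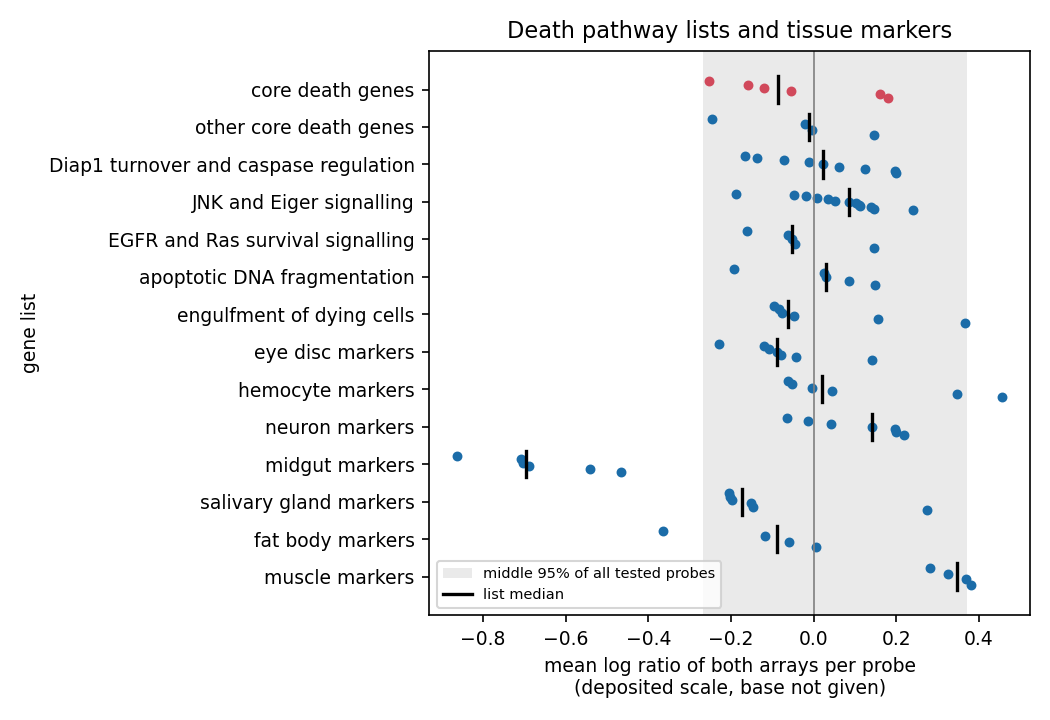
Mean log ratio of both arrays for each probe (x axis, deposited scale, base not given) in the core death genes (red), the 6 lists of the wider death machinery and the tissue marker lists (blue), with list medians as black bars and the middle 95% of all tested probes shaded. The death lists lie inside the shaded range, where their medians run from -0.0865 to 0.0845, the midgut markers lie below it, and the muscle markers lie near its upper edge.

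Among markers of tissues that larval RNA could hold, the medians farthest from 0 were those of midgut and muscle. Limma called 0 of either list. All marker medians but that of hemocytes lay farther from 0 than the death gene median of -0.0865. An unadjusted p under 0.05 (limma) was found for 6 of 6 midgut, 3 of 4 muscle and 2 of 6 hemocyte probes. It was also found for 1 of 6 salivary gland probes, Sgs1 at 0.2735, and 1 of 4 fat body probes, apolpp at -0.3655. The count was 0 of 7 for neuron and 0 of 7 for eye disc probes, and the share over all tested probes was 6.69%. The marker lists were chosen with earlier results of these data known, so these counts are descriptive and carry no weight as a test. The 6 midgut markers were all negative on both arrays, with a median of -0.696. The 4 measured muscle markers were all positive on both, with a median of 0.348. Over all tested probes, 23.1% were negative on both arrays and 26.1% positive on both. The muscle gene up rests on 0.01 on array 2, equal in size to the centring of that array. With array 2 not turned the medians were -0.099 for midgut and 0.068 for muscle markers, the values ran from -0.14 to -0.0185 and from 0.02 to 0.2725, and 0 probes of either list kept a side. Medians were -0.174 for salivary gland, -0.0892 for fat body, 0.021 for hemocyte and 0.141 for neuron markers. The hemocyte means farthest from 0 were those of the prophenoloxidase genes PPO1 (0.457, from 0.739 and 0.175) and PPO2 (0.3475). The other hemocyte means were -0.052 for Hml, -0.0615 for srp, 0.0455 for He and -0.0035 for a Pxn probe. NimC1 (-0.215) and the other Pxn probe (-0.158) had a value on array 2 alone. Of the eye disc markers, where GMR is active, 6 of 7 probes with values on both arrays were negative on both, against 23.1% of all tested probes. The eye disc median was -0.0885. With array 2 not turned it was 0.0175, and 0 of the 7 probes kept a side. The eye genes gl (0.069) and ato (-0.344) had a value on array 2 alone. The eye marker values ran from -0.23 for sev to 0.141 for elav. The elav probe is counted in the neuron list as well, where it is the median. Whether differences in tissue content entered the values of the death genes was not tested.

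Other processing left the death genes uncalled. Adjusted p values by limma ran from 0.648 for Buffy after subtraction of block medians to 0.999. Dark was the one gene that changed its side, to 0.033, with array 2 not turned, and under that reading Dronc went from 0.16 to 0.031 and Diap2 moved to -0.03.

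**Figure D4:**
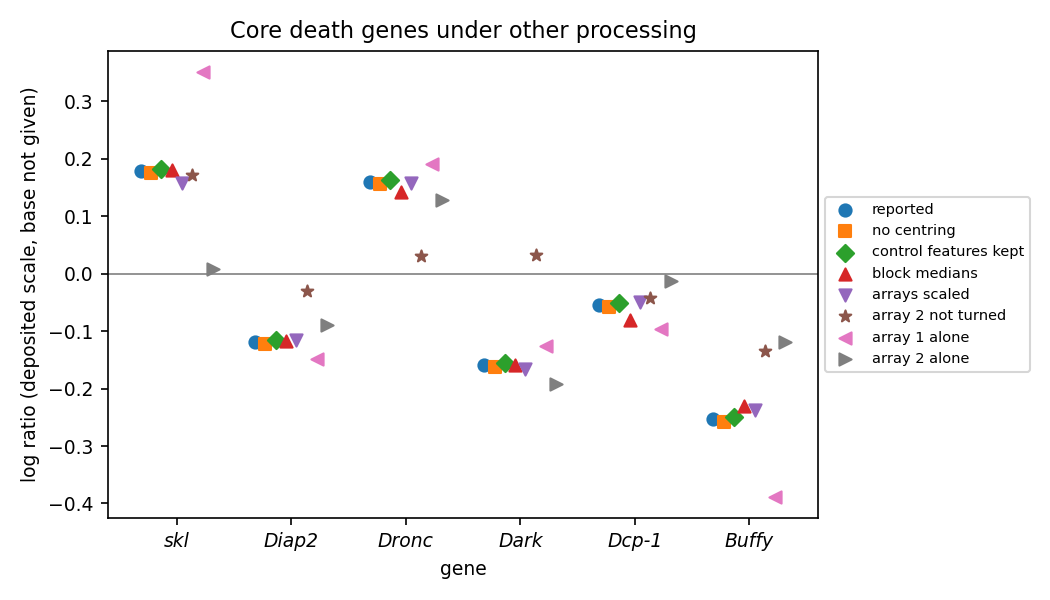
Log ratio (y axis, deposited scale, base not given) of each core death gene (x axis) as reported, under 5 other ways of processing, and on each array alone. Values stay close to the reported ones except with array 2 not turned, where Dark moves from -0.159 to 0.033, and on single arrays, where skl runs from 0.008 to 0.351.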

How the data were processed

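The authors deposited, per probe and array, a single log ratio of the dye channels. The scanner, background correction, normalization, log base and numerator channel were not stated there or in the labels. Empty cells (3996 on array 1 and 1450 on array 2) and the code -10000 (7 cells) were treated as missing, and 0 value columns were left unused. Probes were named from the platform annotation, with 13147 of 15744 carrying 1 symbol, 99 several and 2498 none. Symbols of 12519 probes were updated by gene identifier with RefSeq gene names (Release 6 plus ISO1 MT). Coordinates were used only to order the genes around hid and skl. The 960 unnamed features that recur at 40 places in each of 24 blocks of 656 probes were left out as control spots. Array 2 was turned in sign, each array was centred on its median, and 10912 probes with values on both arrays were tested against 0 with limma 3.58.1 in R 4.3.3 (lmFit, eBayes, two-sided, Benjamini-Hochberg over all probes), on 1 residual degree of freedom. The number of arrays, 2, limits the precision. All 10 chosen genes were to be named, with the highest and lowest measured gene of each other list and the closest partners of the chosen genes. Some genes were named outside this rule, among them yki, hpo, aos, gl, ato, PPO2 and the genes around hid and skl. The genes and lists were chosen with earlier results of these data known. The limma step was tested on simulated data, with changes larger than the means of the core death genes. That run does not show whether changes of their size could be called.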

Additional observations from a re-analysis of the deposited data

How the results depend on the processing

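Limma called 0 probes at an adjusted p under 0.05 in the reported fit and in all 8 alternatives tried, with the lowest adjusted p from 0.242 without centring to 0.981 with array 2 not turned. Between 533 and 942 probes had an unadjusted p under 0.05, against 730 as reported. Under the 5 settings that could change the fitted values of the 6 core death genes, 29 of 30 values kept their direction with no call and 1 was reversed, Dark at 0.033 with array 2 not turned. Under that reading the median of the 6 genes moved from -0.0865 to 0.0005, and the number with the same side on both arrays went from 6 to 0. Both changes follow from the sign given to array 2, which the sources used here do not settle. Entering probes of 1 array or averaging probes per gene could not move these genes, which had 1 probe each. On single arrays, which allow no test, the median of the 6 genes ran from -0.111 to -0.0505, and the values ran from 0.008 to 0.351 for skl and from -0.388 to -0.119 for Buffy. The median of the 6 wider lists, 0.024 as reported, ran from -0.041 to 0.034 on single arrays, and the cause was not tested. No paired analysis was possible because the 2 arrays form 1 group of ratios. No signal intensities were used here, so limits set by dim probes could not be given.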
